A study of Mus musculus with 2 samples.

Results

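The proteasome is the large protease that degrades proteins tagged with ubiquitin, and its genes were read here in 1 culture of Mof null mouse embryonic stem cells and 1 culture of wild-type cells. The members are the genes whose symbol starts with Psm, followed by a letter from a to g and a number, with Psmb8 and Psmb9 left out, read by probe sets that name a single gene. This gave 45 genes with 97 probe sets, of 18193 genes with 34945 probe sets in all, and the choice used names only, not measured values. The genes split by role into 8 of the alpha ring and 9 of the beta ring of the 20S core, 9 of the base and 8 of the lid of the 19S regulatory particle, 3 activators, and 8 assembly factors and regulators. The only probe set for Psme2 names another gene too, so Psme2 is not analysed here.

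Both cultures were C57BL/6 lines from embryos of 3.5 days post coitum at passage 15 to 18, and the genotypes were labelled MOF-/- and MOF +/+. Mof (symbol Kat8) is the enzyme that acetylates lysine residues of histone H4. The cells had been kept on mouse embryonic fibroblast feeders with LIF, and feeders were left out for the last passages before RNA was taken. Each genotype was measured on 1 array, so no value below has a replicate error, no test was run, and neither the clone nor the culture can be told apart from the genotype.

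The proteasome's 20S core is a barrel of stacked rings, in which the outer alpha rings gate the entrance and the inner beta rings carry the proteolytic sites. The 19S particle caps the barrel, and its base holds the ATPases that unfold substrates, while its lid removes ubiquitin. Activators such as PA28 and PA200 can take the place of the 19S particle, and dedicated chaperones help to build the core and the base. Human embryonic stem cells are known for high proteasome activity. The transcription factors Nfe2l1 and Nfe2l2 act on many proteasome genes through antioxidant response elements.

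Levels are RMA values on a log2 scale, and a difference is the value on the Mof null array minus that on the wild-type array. RMA is a background-corrected, quantile-normalised summary of the probes in a probe set, and a gene takes its brightest probe set. Genes with at least 1 of their 2 values at or above 6.02, the median over both arrays, counted as expressed, which left 12015 genes. Kat8 itself had a value of 8.37 on the Mof null array and 8.06 on the wild-type array, and since the place of its probe set relative to the deletion is unknown here, this checks no label. All 10 pluripotency markers were above the level filter on both arrays and higher on the Mof null array, with a median difference of 0.56. All 15 fibroblast markers measured were lower on the Mof null array, and so were all 11 macrophage markers, with median differences of -2.07 and -2.15. Of the macrophage markers, Ptprc and Itgam passed the level filter through the wild-type array alone, so they had to be lower. Over all expressed genes 56.7% were higher on the Mof null array. Values of different probe sets are not compared as levels, since probes bind with different strength.

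Promoter sequences are shown for members with a role in the results: 3 chaperones of the core that were higher on the Mof null array, and 2 catalytic subunits whose windows hold a match to the antioxidant response element core. Each window is from RefSeq on build GRCm38.p6, runs from 250 bases before the gene's start to 50 after it, and is written 5′ to 3′ along the gene's strand. Capitals mark matches to TGACNNNGC (the antioxidant response element core), CCAAT (the box read by the factor NF-Y) or GAAANNGAA (part of the interferon response element), each searched on both strands. The windows are chr13:34162714-34163013 (plus strand) for Psmg4, chr5:139826845-139827144 (minus) for Psmg3, chr16:95990911-95991210 (minus) for Psmg1, chr11:70525107-70525406 (plus) for Psmb6 and chr14:54617946-54618245 (minus) for Psmb5.
Psmg4: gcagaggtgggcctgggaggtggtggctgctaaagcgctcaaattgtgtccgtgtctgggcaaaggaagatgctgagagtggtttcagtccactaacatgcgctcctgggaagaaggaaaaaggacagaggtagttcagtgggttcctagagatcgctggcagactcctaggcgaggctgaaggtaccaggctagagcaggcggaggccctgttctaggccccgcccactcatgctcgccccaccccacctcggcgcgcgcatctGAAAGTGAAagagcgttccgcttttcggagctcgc
Psmg3: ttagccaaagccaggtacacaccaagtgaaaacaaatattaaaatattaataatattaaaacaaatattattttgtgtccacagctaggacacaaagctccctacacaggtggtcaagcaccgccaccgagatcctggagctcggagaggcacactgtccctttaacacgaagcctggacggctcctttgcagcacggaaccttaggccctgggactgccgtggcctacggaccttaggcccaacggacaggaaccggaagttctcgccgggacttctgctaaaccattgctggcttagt
Psmg1: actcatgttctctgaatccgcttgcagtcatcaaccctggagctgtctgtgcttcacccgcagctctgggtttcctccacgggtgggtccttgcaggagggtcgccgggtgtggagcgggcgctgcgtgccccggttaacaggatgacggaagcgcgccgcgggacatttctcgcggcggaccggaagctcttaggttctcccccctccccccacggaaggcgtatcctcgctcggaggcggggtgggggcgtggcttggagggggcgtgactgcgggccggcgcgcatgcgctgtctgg
Psmb6: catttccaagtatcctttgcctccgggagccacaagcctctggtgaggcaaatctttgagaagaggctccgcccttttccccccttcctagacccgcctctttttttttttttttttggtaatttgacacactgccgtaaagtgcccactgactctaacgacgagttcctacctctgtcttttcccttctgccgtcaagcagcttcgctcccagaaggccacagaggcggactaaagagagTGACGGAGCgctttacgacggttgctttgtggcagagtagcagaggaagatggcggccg
Psmb5: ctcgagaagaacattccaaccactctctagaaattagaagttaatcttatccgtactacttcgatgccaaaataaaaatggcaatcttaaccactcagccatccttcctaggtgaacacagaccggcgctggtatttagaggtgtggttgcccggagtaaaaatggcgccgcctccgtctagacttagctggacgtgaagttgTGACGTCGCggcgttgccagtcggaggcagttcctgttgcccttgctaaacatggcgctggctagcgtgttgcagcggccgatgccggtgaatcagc

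As a whole the proteasome genes sat close together and close to the typical gene of the arrays. Of the 45 members 44 passed the level filter, all of them on both arrays, and the thymus-specific Psmb11, at 3.81 on the Mof null array and 3.94 on the wild-type array, did not. The 44 had a median difference of 0.095 with an SD over genes of 0.31, against a median of 0.10 and an SD of 0.81 over all expressed genes. The quartiles of the members were -0.012 and 0.25, and those of all expressed genes -0.37 and 0.45.

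Few members passed the thresholds of size. At least 2-fold, 1 member was higher and 0 were lower, where the shares over all expressed genes were 5.09% higher and 11.9% lower, together 17.0%. At 1.5-fold 4 members passed in either direction, against 36.5% of expressed genes, and 11 members differed by at least 0.32 log2 units, against 59.8%. By sign alone 32 members were higher and 12 lower, where 56.7% of expressed genes were higher, but only 20 of the 44 exceeded the median gene. Of the 44 members 34 differed by less than 0.33, the pooled SD of probe sets within a gene over 5362 genes, and so did 41.4% of expressed genes. Most members lie in the upper part of the scale: 36 had a mean at or above 10.2, the 90th percentile of all values. Of these 36 members 1 was past 1.5-fold, or 2.78%, against 26.5% of all 2810 genes in that range.

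**Figure D1:**
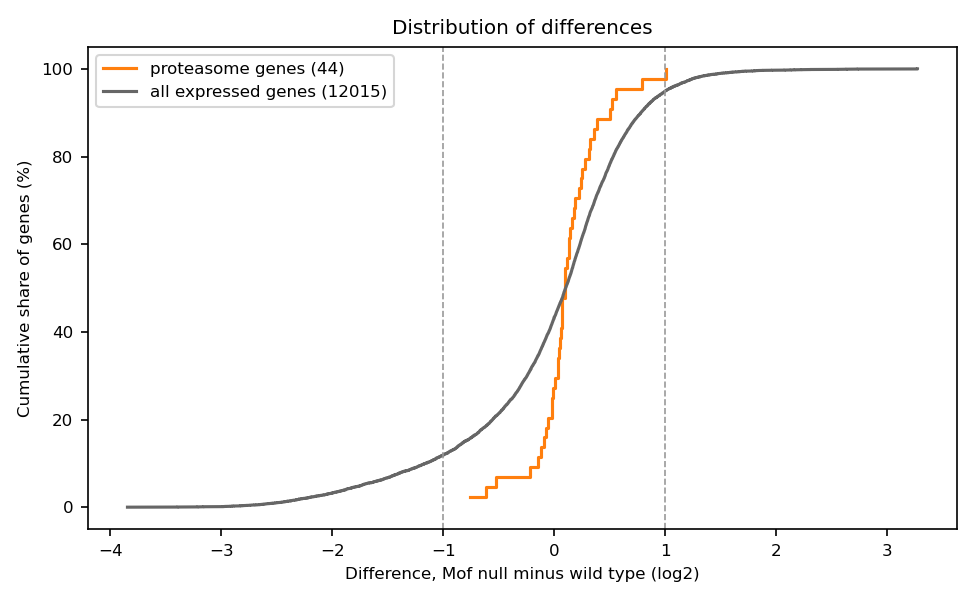
Cumulative share of genes in percent against the difference, Mof null minus wild type, on a log2 scale, for the 44 proteasome genes and all 12015 expressed genes. Dashed lines mark 2-fold. The proteasome curve is steep around its median of 0.095, and 1 gene lies beyond 2-fold.

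Leaving aside the germ-cell subunit Psma8, the 7 alpha subunits lay close together, with differences from -0.015 to 0.19, an SD over genes of 0.073 and a median of 0.037. Psma3 was at 13.4 on both arrays, Psma4 at 13.02 on the Mof null array and 12.9 on the wild-type array, and Psma6 at 12.7 on both. The remaining ones were Psma2, at 12.9 on the Mof null array and 12.8 on the wild-type array, Psma5 at 12.3 on both, Psma7 at 12.01 on the Mof null array and 12.02 on the wild-type array, and Psma1 at 11.9 on the Mof null array and 11.7 on the wild-type array. Each of these differences was under the 0.33 that probe sets within a gene typically vary by.

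Psma8 was the exception in the alpha ring. It encodes the alpha subunit that takes the place of Psma7 in proteasomes of mouse male germ cells. It had a value of 9.75 on the Mof null array and 8.74 on the wild-type array, a difference of 1.01 or 2.02-fold, while Psma7 differed by -0.011 on its brightest probe set and by 0.19 on its other. Psma8 ranked 587th among the 12015 expressed genes from the most positive difference down. It is read by 1 probe set and lies just past 2-fold: centring on the median gene gave 0.91, correction of the trend with level also 0.91, and scaling to the pluripotency markers 0.45.

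Of the beta ring genes for the 3 proteolytic sites, Psmb7 was lower, while Psmb6 and Psmb5 were higher by less than probe sets within a gene typically vary. Psmb7, the trypsin-like site, had a value of 11.9 on the Mof null array and 12.6 on the wild-type array, lower by 0.76 log2 units or 1.70-fold. Psmb6, the caspase-like site, was at 12.5 on the Mof null array and 12.2 on the wild-type array. Its difference of 0.326 was just under the pooled probe-set SD of 0.334. Psmb5, the chymotrypsin-like site, was at 12.47 on the Mof null array and 12.40 on the wild-type array, a difference of 0.067. Psmb7 thus had the most negative difference of all 44 members, 1.09 log2 units below that of Psmb6. Among all expressed genes 15.6% had a more negative difference than Psmb7. Each of these genes is read by 1 probe set, so no second probe set checks them.

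The beta subunits without a proteolytic site were higher by small amounts as deposited, those of Psmb1 and Psmb2 below the 0.10 of the median gene. Relative to the pluripotency markers all lay below 0, and 18.4% of expressed genes lay above it. Psmb3 was at 12.6 on the Mof null array and 12.1 on the wild-type array, a difference of 0.50, and its second probe set gave 0.33. Psmb4 differed by 0.14, with another probe set at -0.070. Psmb2 differed by 0.074 and Psmb1 by 0.053, and the 3 expressed probe sets of Psmb1 ran from -0.11 to 0.45. The probe set at 0.45 passed the level filter through the Mof null array alone, and that at -0.11 through the wild-type array alone. The signs of both were therefore fixed by the filter.

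Psmb10, which takes the place of Psmb7 in the interferon-induced immunoproteasome, was at 8.78 on the Mof null array and 9.30 on the wild-type array, lower by 0.52 log2 units or 1.43-fold. Among all expressed genes 20.9% had a more negative difference than Psmb10. Both the standard and the inducible gene for the trypsin-like site were therefore lower on the Mof null array. All 9 interferon response genes measured were lower too, 8 of them at least 2-fold against the 11.9% over all expressed genes, with a median difference of -2.70. Oasl2 and Nlrc5, at 5.97 and 4.76 on the Mof null array, were under the level filter there and passed it through the wild-type array alone, so they had to differ. Ifit1, Oasl2, Usp18 and Irgm1 were lower by 11.1-fold, 9.35-fold, 9.14-fold and 6.97-fold, while Irf1, an interferon-induced transcription factor, differed by -0.19. Psmb10 thus differed less than 8 of these 9 genes.

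**Figure D2:**
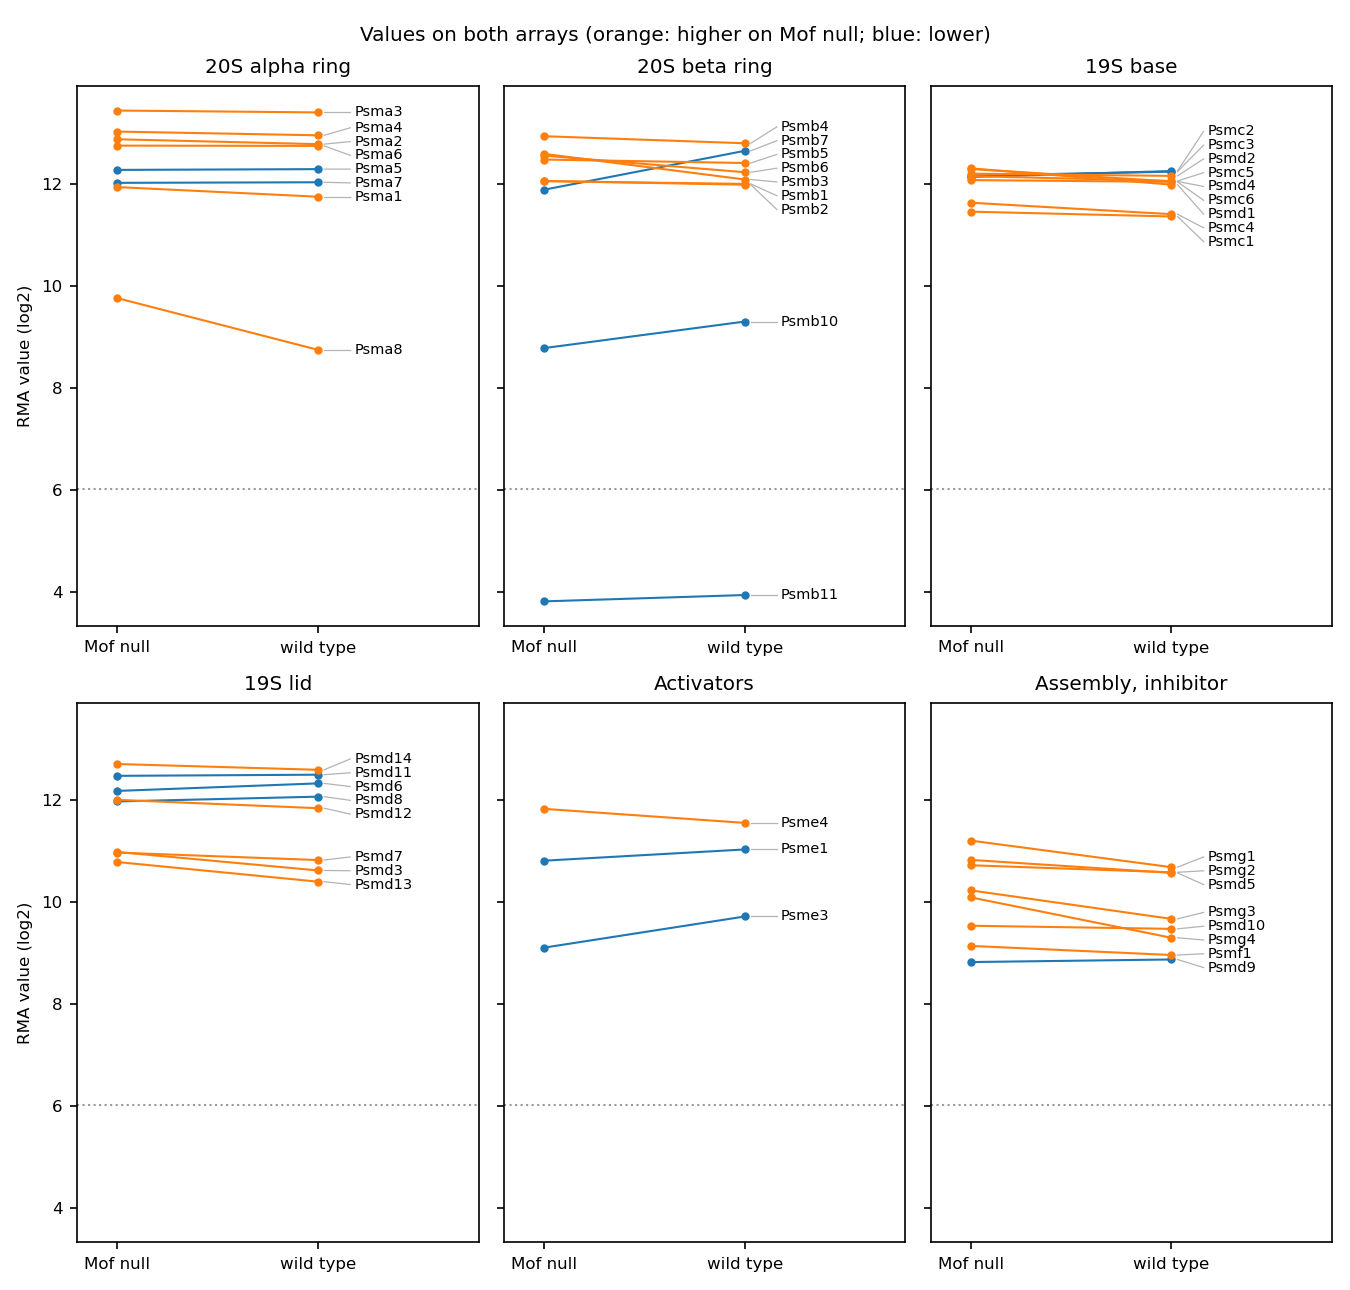
RMA value on a log2 scale of each of the 45 genes on the Mof null array and on the wild-type array, by class, with a line joining the values of a gene. The dotted line is the level filter of 6.02, and Psmb11 alone lies below it. Psma8 and Psmg4 slope down and Psmb7, Psmb10 and Psme3 slope up to the wild-type array, while most lines are flat.

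In the 19S base the differences were small, with a median of 0.094 and an SD over genes of 0.15. The 6 ATPase genes, whose products form the ring that unfolds substrates, had differences from -0.11 for Psmc2 to 0.22 for Psmc4, with a median of 0.064. Psmc1 and Psmc5 differed by 0.094 and 0.096, Psmc6 by 0.035 and Psmc3 by -0.076. The scaffold genes were at 12.3 on the Mof null array and 11.98 on the wild-type array for Psmd1 and at 12.2 on the Mof null array and 12.1 on the wild-type array for Psmd2, differences of 0.32 and 0.044. The ubiquitin receptor gene Psmd4 differed by 0.24, with its 3 probe sets between 0.049 and 0.34.

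The 19S lid had a median difference of 0.13, near the 0.10 of the median gene. Of its 8 genes 5 were higher, or 62.5%, near the 56.7% of expressed genes that were higher. Psmd14, the deubiquitinase of the lid, was at 12.7 on the Mof null array and 12.6 on the wild-type array, a difference of 0.11, and its partner Psmd7 differed by 0.15. Psmd13 was at 10.8 on the Mof null array and 10.4 on the wild-type array, and Psmd3 at 10.98 on the Mof null array and 10.6 on the wild-type array, differences of 0.38 and 0.36 that were the only ones of the lid past 0.32. Psmd12 differed by 0.16, and Psmd11, which clamps the lid to the core, by -0.022, with 5 expressed probe sets from -0.24 to 0.30. Psmd6 and Psmd8 were lower by 0.15 and 0.094 log2 units. Without probe sets that can match several transcripts the lid median was -0.033. In that setting Psmd12, Psmd13 and Psmd14, all higher, dropped out because they had no other expressed probe set. The sign of the lid median thus rests on which genes are kept.

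The 3 activators measured had no direction in common. Psme1, a subunit of the interferon-induced PA28 ring, was at 10.8 on the Mof null array and 11.03 on the wild-type array, a difference of -0.22. Psme4, the PA200 activator that in mouse testis takes part in the loss of acetylated histones, was at 11.8 on the Mof null array and 11.6 on the wild-type array, a difference of 0.27. Its 5 expressed probe sets ran from -0.28 to 0.53. Psme3, the nuclear PA28 gamma, was at 9.11 on the Mof null array and 9.72 on the wild-type array by its brightest probe set, a difference of -0.61, but another probe set was at 9.40 on the Mof null array and 9.05 on the wild-type array, a difference of 0.35. No direction can be given for Psme3, since its 2 expressed probe sets had opposite signs. Its mean over all 3 probe sets, which includes 1 below the level filter, differed by -0.076.

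The chaperones that assemble the 20S core were higher on the Mof null array in all 4 cases as deposited, where 56.7% of expressed genes were higher. After trend correction Psmg2 was at -0.0068. Relative to the pluripotency markers 3 of the 4 lay below 0, and 18.4% of expressed genes lay above it. Psmg1 and Psmg2 form one chaperone pair and Psmg3 and Psmg4 another, and both pairs help the alpha subunits to join into a ring. Psmg4 was at 10.1 on the Mof null array and 9.30 on the wild-type array, a difference of 0.79 or 1.73-fold. Psmg3 was at 10.2 on the Mof null array and 9.67 on the wild-type array, a difference of 0.56, while a second, dim probe set gave -0.033. Psmg1 was at 11.2 on the Mof null array and 10.7 on the wild-type array, a difference of 0.52. Psmg2 was at 10.7 on the Mof null array and 10.6 on the wild-type array, a difference of 0.14, and its other expressed probe set gave 0.48.

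The median of the 4 core chaperones was 0.54, against 0.037 for the 7 ubiquitous alpha subunits they assemble and 0.10 for all expressed genes. Averaged over every probe set of a gene, Psmg4 differed by 0.50, Psmg3 by 0.26 and Psmg2 by 0.32. For Psmg4 and Psmg2 this average includes a probe set below the level filter. This is a description of 4 genes on 1 pair of arrays, and it was noticed in these values. The 10 pluripotency markers had differences from 0.025 to 0.94, which span those of the 4 chaperones. Taken relative to the median of those markers, Psmg4 differed by 0.23, Psmg1 by -0.043, Psmg3 by -0.0045 and Psmg2 by -0.43. The chaperones of the 19S base lay nearer to 0, with Psmd5 at 0.25, Psmd10 at 0.061 and Psmd9 at -0.051.

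Psmf1, which encodes the proteasome inhibitor PI31, had probe sets that disagreed. The brightest gave 9.14 on the Mof null array and 8.96 on the wild-type array, a difference of 0.18, while the other 3 gave differences from -0.75 to -0.50. The probe set at -0.75 passed the level filter through the wild-type array alone, so it had to be lower. Across members, 21 genes had several expressed probe sets, and in 11 of them these lay on both sides of 0. The same share over all genes was not worked out. Some of the 11 crossed 0 by little, such as Psma6 (-0.011 and 0.0055). Psmb1 did so only through a probe set near the level filter. The pooled SD between probe sets of the 21 genes was 0.26, against 0.33 over the 5362 genes of the arrays with several expressed probe sets.

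**Figure D3:**
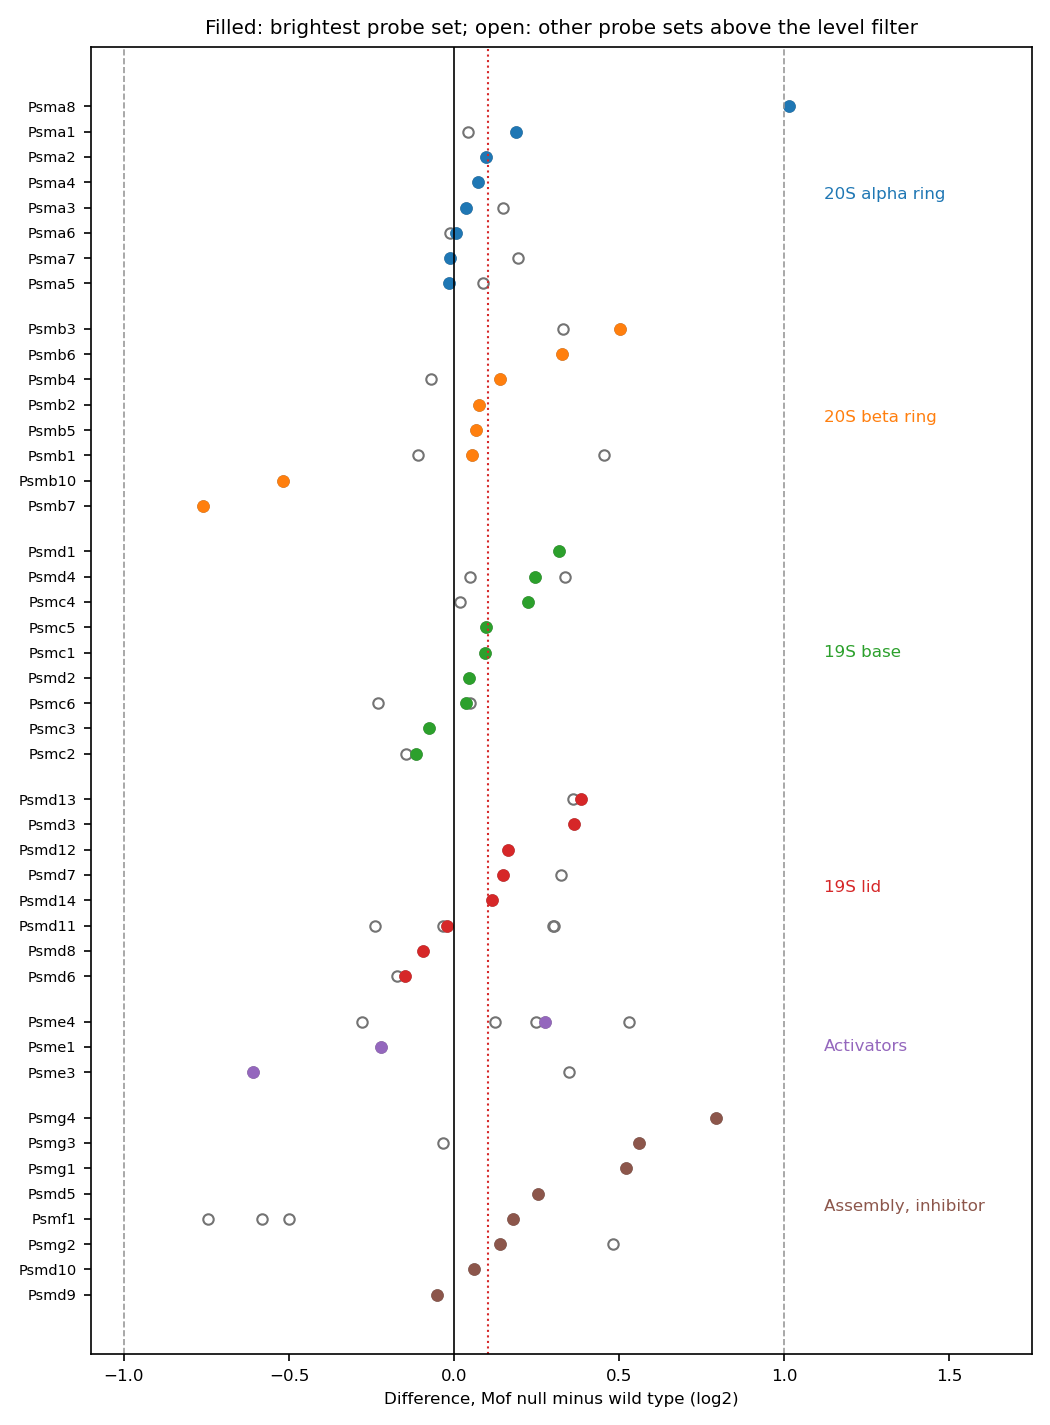
Difference, Mof null minus wild type, on a log2 scale for the 44 expressed proteasome genes by class. Filled points are the brightest probe set of a gene and open points its other expressed probe sets. The dotted line is the median expressed gene at 0.10 and the dashed lines are 2-fold. Psma8 lies just past 2-fold, and the open points of Psme3 and Psmf1 lie on the other side of 0 from the filled ones.

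Genes that work with the proteasome but carry other names also lay near 0. Of 16 partners listed 14 were measured, 7 higher and 7 lower, where 56.7% of expressed genes were higher, with a median difference of 0.014. The one past 2-fold was Zfand2a, a stress-induced protein that binds the 19S particle, lower by 2.15-fold, against a background of 11.9% of genes past that size and lower. By brightest probe set the largest positive differences were those of the proteasome deubiquitinase Uchl5 (0.46) and the shuttle factors Ubqln1 (0.40) and Ubqln4 (0.39). The 2 expressed probe sets of Ubqln1 lay at -0.013 and 0.40, and those of Ubqln4 at 0.39 and 0.64. The core maturation factor Pomp, which works with the Psmg chaperones, differed by -0.074. Of the ubiquitin list 4 of 9 genes were analysed, with differences of -0.44 for Ufd1, -0.18 for the segregase Vcp, -0.011 for Nploc4 and 0.19 for the ubiquitin-activating enzyme Uba6. The 4 expressed probe sets of Uba6 ran from -0.0066 to 0.72.

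Among the regulators of proteasome genes, 5 of 9 measured were lower, with a median of -0.38. Ngly1, which removes sugars from Nfe2l1, was at 7.89 on the Mof null array and 8.99 on the wild-type array, lower by 2.13-fold. It was the one of these 9 genes past 2-fold, near the background of 17.0% in either direction, and 4 of the 9 were higher, where 56.7% of expressed genes were. Nfe2l2 was lower by 1.65-fold, and its small Maf partner Maff by 1.47-fold, while Nfe2l1 differed by 0.18 and the NF-Y subunit Nfyb was higher by 1.46-fold.

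**Figure D4:**
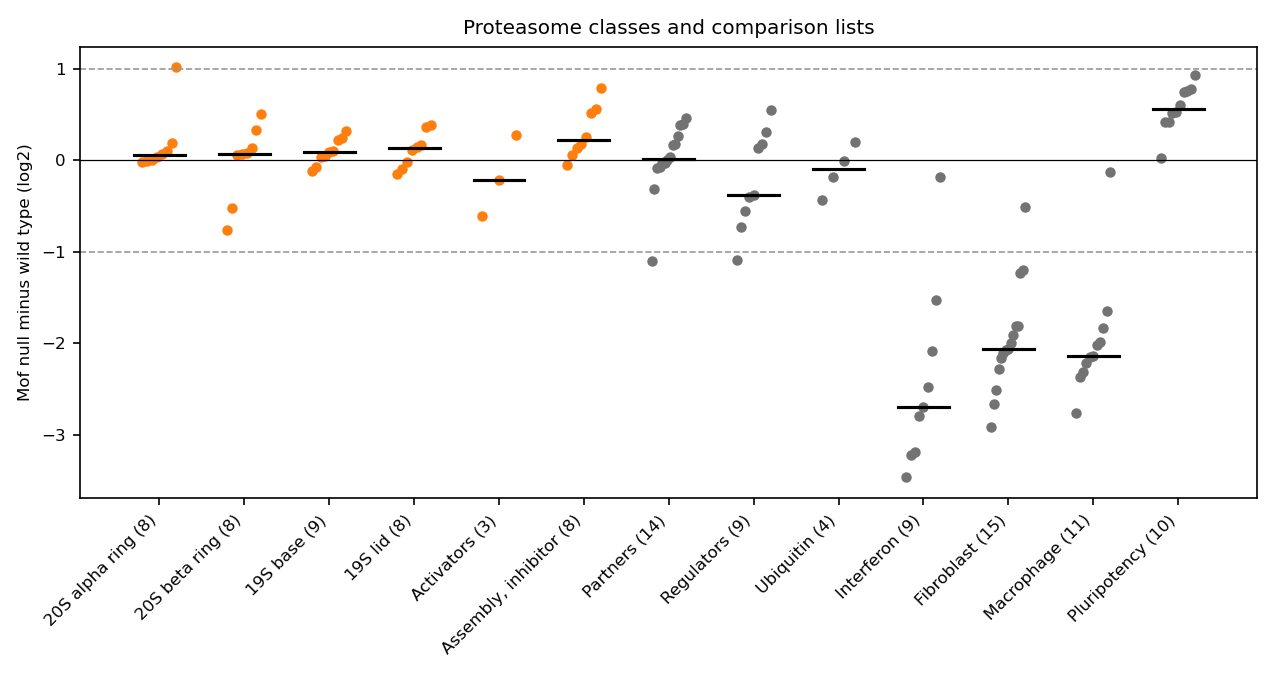
Difference, Mof null minus wild type, on a log2 scale for the expressed genes of each proteasome class (orange) and of the comparison and marker lists (grey), with the number of genes in brackets. Bars are medians and dashed lines are 2-fold. The proteasome classes lie between medians of -0.22 and 0.22, while those of the interferon, fibroblast and macrophage lists are -2.70, -2.07 and -2.15.

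Most markers of other cell types moved far more than the proteasome genes. Differences ran from -2.92 to -0.51 over the fibroblast markers and from -2.77 to -0.13 over the macrophage markers. The least changed marker of each list thus differed less than Psmb7 (-0.76). That of the fibroblast list, Sparc, had 3 expressed probe sets, which ran from -0.72 to 0.16. The linear values of the 15 fibroblast markers summed to 44370 on the Mof null array and 120981 on the wild-type array, and those of the 11 macrophage markers to 4575 on the Mof null array and 15522 on the wild-type array. Col1a1, S100a4, Twist2 and Prrx1 were lower by 7.57-fold, 6.33-fold, 5.70-fold and 4.85-fold, and Ptprc, Tyrobp, Adgre1 and Fcgr3 by 6.80-fold, 5.16-fold, 4.96-fold and 4.65-fold. Ptprc and Itgam were below the level filter on the Mof null array, at 5.33 and 4.81, so they had to be lower. All other markers were above it on both arrays. The 4 pluripotency markers with the largest differences were Tdgf1 (1.91-fold higher), Utf1 (1.71-fold), Sox2 (1.69-fold) and Nanog (1.67-fold). In such bulk RNA fewer cells of a type and less RNA per cell cannot be told apart, and the part of these marker changes in the values of Psmb10, Psme1 or the Psmg genes was not tested.

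The promoters shown above were set beside those of the other members. RefSeq windows were found for 37 of the 45 genes, 39 windows in all, with a median GC content of 57.3% against 52.7% over all 32851 windows. The antioxidant response element core TGACNNNGC occurred in 6 member windows, or 15.4%, against 12.4% of all windows. The 6 matches, read along the motif, show how the middle bases vary, and are placed by the first base on the gene's strand relative to the start:
Psmb5, position -47: TGACGTCGC
Psmb6, position -9: TGACGGAGC
Psmc6, position -227: TGACTTAGC
Psmd9, position -31: TGACCCCGC
Psmd12, position -247: TGACACAGC
Psme4, position -7: TGACGCTGC

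Genes with this motif had a median difference of 0.12 and the other 31 genes with a window 0.094. The CCAAT box occurred in 13 member windows, or 33.3%, against 37.4% of all windows, and the interferon element part GAAANNGAA in 7, or 17.9%, against 8.56%. These matches were found in Psme1, Psmg4, Psmb3, Psmb4, Psmc2, Psmd4 and Psmd9, whose differences ran from -0.22 to 0.79, and these letters were not in the window of Psmb10. Of the windows shown those of Psmg3 and Psmg1 hold no match to any of the 3 motifs and each other window holds 1, and a match describes letters in a window, not binding.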

How the data were processed

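Total RNA of 1 Mof null and 1 wild-type culture was hybridised to 1 array each. The authors deposited log2 values per probe set for 45101 probe sets, using RMA from affy under R 2.10.0, per the submitters' processing notes. That the scale is log2 follows from their range of 2.77 to 14.7. Arrays are limited in precision by their number, here 1 per genotype.

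Names came from the platform's annotation table, in which 34958 probe sets carry 1 symbol, 932 several, and 9211 probe sets are not listed. A gene took its brightest probe set by the mean of both arrays. No test was possible, and genes were described by size, counts and class medians beside the same over all expressed genes. Every member is named, and of each further list the 4 genes with the largest absolute difference. Irf1, Itgam, Nfe2l1, Nlrc5 and Pomp fall outside that rule, as do the promoters printed, and were picked with their values in view. Members and lists were chosen with earlier results of these data known. Genes listed but not found by symbol were not analysed here. Collapsing, filtering and centring were tested on simulated data with planted shifts. Software was pandas 2.3.3, numpy 2.4.6, statsmodels 0.14.6 and matplotlib 3.10.9 under Python 3.11.15. Alternatives were the mean of a gene's probe sets, dropping probe sets whose names end in _s_at, _x_at or _a_at, other level filters, centring, a lowess correction (span 0.3), quantile normalization, other fold thresholds and leaving out a class's most changed member. A scaling on pluripotency markers and a filter at the 90th percentile were chosen after seeing the data.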

Additional observations from a re-analysis of the deposited data

How the results depend on the processing

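The medians of the alpha ring, beta ring and 19S base were smaller than the 0.10 by which the median gene differs from 0. No paired analysis was possible because there is 1 array per genotype, and for the same reason no array could be left out. Centring, which lowers every gene by 0.10, turned the medians of the alpha ring (-0.049), beta ring (-0.033), 19S base (-0.0096) and all members (-0.0089) negative. It left 20 members higher, 24 lower and 0 past 2-fold, against 17.0% of expressed genes past 2-fold. Centring puts the median expressed gene at 0, so expressed genes split almost evenly by sign there. Trend correction gave -0.0082, -0.031, -0.037 and -0.0084 for the same 4, and Psmg2 was at -0.0068. It left 21 members higher, 23 lower and 0 past 2-fold, against 50.6% of expressed genes higher and 17.2% past 2-fold. At 1.5-fold 4 members passed, at 0.32 log2 units 11 and at 4-fold 0, against 36.5%, 59.8% and 3.53% of expressed genes. Without probe sets that can match several transcripts 37 members were left, and the 19S lid, without Psmd12, Psmd13 and Psmd14, had a median of -0.033. With the mean of all probe sets Psmf1 differed by -0.41, Psmg3 by 0.26 and Psmg4 by 0.50. The activator median was 0.027 without Psme3, and also 0.027 among genes at or above the 90th percentile. In that range 0 members passed 2-fold, against 10.1% of all genes there.

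Relative to the pluripotency markers (a scaling added with the data in view, which takes 0.56 off each gene), the medians were -0.51 for the alpha ring, -0.49 for the beta ring, -0.47 for the base, -0.43 for the lid, -0.78 for activators, -0.35 for assembly and regulatory genes and -0.47 for all members. In that scaling the median expressed gene lay at -0.46. There 2 members were higher, 42 lower and 3 past 2-fold (Psmb7, Psmb10 and Psme3), where 18.4% of expressed genes were higher and 24.0% past 2-fold. Psmg1 (-0.043), Psmg2 (-0.43), Psmg3 (-0.0045), Psme4 (-0.29), Psmf1 (-0.38) and Psmb3 (-0.061) turned negative. These shifts follow from the construction of the scalings. Psma8 (0.45 in that scaling) and Psmg4 stayed positive and Psmb7, Psmb10 and Psme1 negative under every alternative in which they were measured. For most alternatives this was fixed in advance. Psma8, Psmb7, Psmb10 and Psme1 are read by 1 probe set each, so the choice of probe sets and the level filter could not change their values. Centring and the pluripotency scaling lower every gene, so they could not turn a negative difference positive. The expressed probe sets of Psme3 lay on both sides of 0. Over all alternatives, 78 class or count values and 98 gene values stayed the same. For this a value had to keep its sign and move by less than 0.33, the spread between probe sets. Counts had to stay within 1.5 times. Another 14 class or count values and 8 gene values moved by more, and 17 and 8 changed sign. Some of the values that stayed could not change under a given alternative.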
